A study of Mus musculus with 6 samples.

Results

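RNA of 10 genes that write, copy or remove DNA methylation was compared between mouse ESCs and EpiLCs. They were chosen by name, as the DNA methyltransferases Dnmt1, Dnmt3a and Dnmt3b, the cofactors Dnmt3l, Uhrf1 and Uhrf2, the TET enzymes Tet1, Tet2 and Tet3, and the glycosylase Tdg, and all 10 were among the 24736 genes measured. The study collected 6 polyA RNA-seq libraries from wild-type ESCs of the XY HM1 TetON line, 3 biological replicates of undifferentiated ESCs at 0 h and 3 of EpiLCs at 48 h. The time is that of the labels, and the culture methods of the study give a longer one for EpiLCs. ESCs had been kept on mitotically inactivated fibroblast feeders with 10% serum and 1000 U/ml LIF. Before differentiation the feeders were removed by their adhesion to plastic, and the methods do not say whether this was also done for the ESC samples. EpiLCs were derived from them in N2/B27 medium to which bFGF (10 ng/ml) and LGK974 (5 µM), an inhibitor of WNT secretion, had been added. Both groups thus shared 1 cell line and no genetic change separated them, whereas time, serum, LIF, feeders, bFGF and LGK974 differed together and cannot be told apart.

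In mammals DNA methylation sits mainly on cytosines of CpG dinucleotides. DNMT3A and DNMT3B set it on unmethylated DNA with the catalytically inactive partner DNMT3L, and DNMT1 copies it after replication, guided by UHRF1, which binds hemimethylated CpG. TET enzymes oxidize methylcytosine, and TDG removes the more oxidized forms for base excision repair. The genome of the early embryo is lowly methylated before implantation and gains methylation in the post-implantation epiblast.

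The libraries held between 16967741 and 35096210 expected counts, so that 3 counts corresponded to between 0.0855 and 0.177 CPM (counts scaled to 1000000 per library). Of 8 pluripotency markers 7 were lower in EpiLCs and Pou5f1 was not called (log2 fold change 0.07, adjusted p = 0.496), and all 5 epiblast markers were higher. ESC replicate 2 stood apart in fibroblast markers, whose 10 genes summed to 1089.70 TPM (transcripts per 1000000, a level scaled for transcript length), against 232.32 and 82.83 TPM in ESC replicates 1 and 3 and between 37.22 and 68.12 TPM in EpiLCs. Of 9 fibroblast markers tested, 5 were lower in EpiLCs, 0 higher and 4 not called. The collagen Col1a1 ranged from 28.3 to 489 TPM in ESCs and from 3.08 to 13.9 TPM in EpiLCs, with Lum listed at 0 in 3 of the 6 libraries. Col1a1 and Col1a2 (411.66 TPM) made up most of the sum in ESC replicate 2, where Dcn was at 1.63 and Postn at 4.82 TPM. Primitive streak markers summed to 516.88 TPM in ESC replicate 1 and between 171.85 and 206.43 TPM in the other ESC libraries. In EpiLC replicates 1, 2 and 3 they summed to 8.16, 8.38 and 49.52 TPM, with the streak gene T at 0.87, 0.69 and 30.69 TPM. The 6 primitive endoderm markers summed to between 39.21 and 72.62 TPM in ESCs and between 10.52 and 11.03 TPM in EpiLCs. Of these lists 5 of 6 endoderm and 6 of 7 streak genes were lower and 0 higher. The part of these other cells in the results below was not tested, and in bulk RNA fewer cells of a type cannot be told apart from less RNA per cell.

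De novo methyltransferase genes rose, their cofactor fell, the copying machinery moved little and the TET genes split. Of the 10 genes, 4 were higher in EpiLCs (Dnmt3a, Dnmt3b, Tet3 and Tdg) and 4 lower (Dnmt3l, Tet1, Tet2 and Uhrf1), at an adjusted p of at most 0.05 in edgeR's quasi-likelihood test. Of all 14468 genes tested, 22.6% were higher and 22.8% lower by the same rule, 45.4% in either direction. The 10 genes' median log2 fold change of -0.04 was near that of all genes (-0.0017), as rises and falls cancelled, and 8 of the 10 had no overlap in TPM between the ESC and EpiLC libraries, as had 59.5% of all genes tested. ESC replicate 2 was the library richest in fibroblast markers and also the one with the fewest counts. Without it, 4 of the 10 were higher and 5 lower (all genes: 24.3% and 24.5%). The fall of Uhrf1 missed the threshold in 8 of 13 alternative fits. Dnmt3b showed the largest rise and Tet2 the largest fall. Among all genes tested, 94.0% changed less than Dnmt3b and 98.4% less than Tet2, by the size of the log2 fold change.

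**Figure D1:**
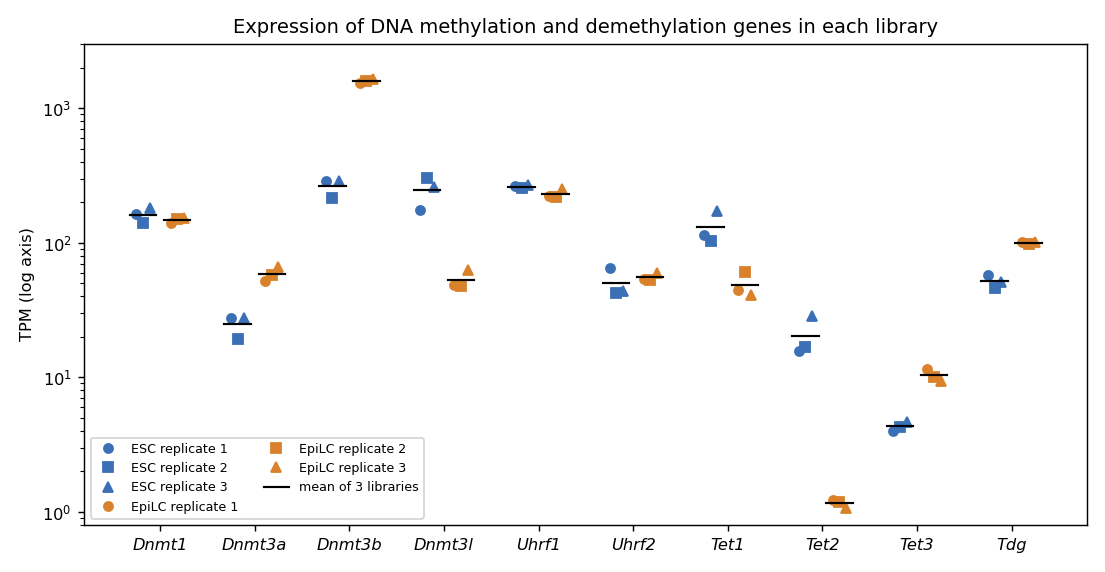
TPM of the 10 genes on a log axis, 1 symbol per library, with ESCs in blue, EpiLCs in orange and a bar at the mean of 3 libraries. Dnmt3b lies between 214.57 and 289.62 TPM in ESCs and between 1534.66 and 1659.64 TPM in EpiLCs, and Tet2 between 15.73 and 28.72 TPM against 1.07 to 1.22 TPM.

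Promoters of the gene that rose most and of both genes that fell most are shown because the CpG dinucleotide, given in capitals, is the substrate of these enzymes. Each is 250 bases before to 50 bases after a RefSeq start on GRCm38.p6 and reads 5′ to 3′ on the gene's strand. All 10 genes matched the promoter table, with 17 annotated starts. Gene-level values do not show which start the RNA of these cells came from.
Dnmt3b promoter, chr2:153649199-153649498, plus strand: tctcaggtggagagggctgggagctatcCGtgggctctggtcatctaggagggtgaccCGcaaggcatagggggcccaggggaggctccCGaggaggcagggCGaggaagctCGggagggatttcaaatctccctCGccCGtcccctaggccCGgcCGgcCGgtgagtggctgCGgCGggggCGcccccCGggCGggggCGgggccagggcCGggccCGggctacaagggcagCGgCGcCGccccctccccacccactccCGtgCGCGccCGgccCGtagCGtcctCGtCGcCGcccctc
Dnmt3l promoter (most upstream of 3 starts), chr10:78042037-78042336, plus strand: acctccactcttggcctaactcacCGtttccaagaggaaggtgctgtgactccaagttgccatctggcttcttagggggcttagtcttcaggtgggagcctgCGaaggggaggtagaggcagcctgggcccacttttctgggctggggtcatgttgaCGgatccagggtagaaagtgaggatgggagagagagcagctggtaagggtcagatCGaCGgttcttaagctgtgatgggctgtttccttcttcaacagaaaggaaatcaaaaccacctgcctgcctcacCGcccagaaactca
Tet2 promoter, chr3:133544341-133544640, minus strand: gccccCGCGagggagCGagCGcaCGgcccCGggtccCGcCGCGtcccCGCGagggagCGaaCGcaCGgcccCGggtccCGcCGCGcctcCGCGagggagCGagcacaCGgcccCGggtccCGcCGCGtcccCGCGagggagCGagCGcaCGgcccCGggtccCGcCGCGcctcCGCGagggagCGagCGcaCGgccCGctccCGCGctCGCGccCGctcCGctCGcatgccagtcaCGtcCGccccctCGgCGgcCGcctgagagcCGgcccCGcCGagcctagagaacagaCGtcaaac
The Tet2 promoter held 57 CpG, more than 99.8% of 32851 promoters of this length, whose median was 7. In the Dnmt3b promoter there were 30 CpG, more than in 88.3% of promoters. The Dnmt3l promoter held 6 CpG, more than 43.6% of promoters, and the other Dnmt3l starts had 4 and 3. Each of the other 9 genes had a start with 17 or more CpG, but the most upstream Dnmt1 start held only 2 and further starts of Dnmt1 and Uhrf1 held 12 each. The deposited values measured RNA and not methylation at these CpG.

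The 17 windows come from 10 genes, and those of the first and second Dnmt3a start overlap and share sequence. A search of them on both strands found the GC box (GGGCGG), a site bound by SP1, in 13 of them and in 35.7% of all promoters. The CCAAT box (CCAAT) was in 6 of the 17 and in 37.4% of all promoters. The octamer (ATGCAAAT), which POU factors such as OCT4 recognize, was in 0 of the 17 and in 1.74% of all. The E-box (CACGTG) was in 3 of the 17 (all: 7.15%), and the cAMP response element (TGACGTCA) was in 1, that of Tdg (all: 1.79%).

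Among the de novo enzymes, Dnmt3b (chromosome 2, 153649411 to 153687730, mm10) encodes the methyltransferase typical of the early post-implantation embryo. Its level was 289.62, 214.57 and 289.10 TPM in ESC replicates 1, 2 and 3 and 1534.66, 1588.93 and 1659.64 TPM in EpiLC replicates 1, 2 and 3. Every EpiLC library exceeded every ESC library, and the EpiLC libraries lay close together. The mean rose from 264 ± 43.2 to 1594 ± 62.7 TPM (SD, n = 3 each), 5.83-fold in the fitted model (log2 fold change 2.54, standard error 0.13, adjusted p = 5.89e-05). By mean TPM, Dnmt3b moved from rank 581 to rank 103 of all genes measured.

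Dnmt3a (chromosome 12, 3801559 to 3914443) encodes the second catalytic de novo enzyme. ESC replicates 1, 2 and 3 had 27.62, 19.20 and 27.46 TPM, and EpiLC replicates had 52.38, 57.51 and 65.87 TPM. The groups did not overlap, and ESC replicate 2 was the lowest library, as it was for Dnmt3b. Dnmt3a rose 2.29-fold (log2 fold change 1.19, standard error 0.16, adjusted p = 0.00149), and without ESC replicate 2 its log2 fold change was 1.04 (adjusted p = 6.53e-04). Dnmt3a stayed far below Dnmt3b in both states: the ratio of Dnmt3b to Dnmt3a TPM was 10.7 ± 0.387 in ESCs and 27.4 ± 2.06 in EpiLCs (SD, n = 3).

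Dnmt3l (chromosome 10, 78042287 to 78063622), the partner without catalytic activity, went the other way. ESC replicates 1, 2 and 3 had 174.10, 301.21 and 258.87 TPM, against 48.13, 47.90 and 62.50 TPM among EpiLC replicates. Its highest library was ESC replicate 2, where Dnmt3a and Dnmt3b were lowest, and no EpiLC library reached the ESC range. Dnmt3l was 4.80-fold lower in EpiLCs (log2 fold change -2.26, standard error 0.22, adjusted p = 4.45e-04), and without ESC replicate 2 the log2 fold change was -2.09. In ESCs Dnmt3l matched the summed TPM of Dnmt3a and Dnmt3b most closely in replicate 3 (ratio 0.818), with 0.549 and 1.29 in replicates 1 and 2. In EpiLCs that ratio was 0.0303, 0.0291 and 0.0362, so the RNA of the partner was scarce beside that of the enzymes.

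Copying of methylation changed less in RNA. Dnmt1 (chromosome 9, 20907206 to 20959888), the maintenance methyltransferase, was at 163.04, 140.48 and 181.18 TPM in ESCs and at 139.98, 149.47 and 151.79 TPM in EpiLCs. These ranges overlapped, and the difference did not pass the threshold (log2 fold change -0.19, standard error 0.10, adjusted p = 0.170). Without ESC replicate 2, the log2 fold change of Dnmt1 was -0.28 and passed it (adjusted p = 0.0191), and without ESC replicate 3 it was -0.08 (adjusted p = 0.464).

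Uhrf1 (chromosome 17, 56303337 to 56323486), which recruits DNMT1 to replicated DNA, was at 262.60, 253.74 and 268.96 TPM in ESCs and at 221.13, 220.52 and 251.64 TPM in EpiLCs. All EpiLC libraries were below all ESC libraries, by little in EpiLC replicate 3. The fall of 0.23 on the log2 scale (standard error 0.08) had an adjusted p = 0.0423, and it missed the threshold in 8 of 13 alternative fits (adjusted p from 0.0172 to 0.162). The ratio of Uhrf1 to Dnmt1 TPM was 1.63 ± 0.162 in ESCs and 1.57 ± 0.0916 in EpiLCs (SD, n = 3). The log2 ratio differed by -0.05 (exact two-sided permutation test, p = 0.6; with 3 libraries against 3 the smallest p is 0.1), and its sign turned without ESC replicate 2 (0.02).

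Uhrf2 (chromosome 19, 30030430 to 30093726) encodes a relative of UHRF1 that does not replace it in maintenance. It was at 64.51, 42.21 and 43.50 TPM in ESCs and at 53.75, 53.27 and 59.49 TPM in EpiLCs, so that ESC replicate 1 lay above the EpiLC libraries and the other ESC replicates below them. No difference was called (log2 fold change 0.10, standard error 0.16, adjusted p = 0.648). Without ESC replicate 1, the log2 fold change was 0.30 (adjusted p = 0.0432), and without ESC replicate 2 it was -0.01 (adjusted p = 0.960).

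The TET genes did not move together. Tet1 (chromosome 10, 62804570 to 62887469), the main TET gene of ESCs, was at 114.63, 103.34 and 173.21 TPM in ESCs and at 44.75, 60.66 and 40.83 TPM in EpiLCs. ESC replicate 3 was the highest library, and the groups did not overlap. Tet1 was 2.78-fold lower in EpiLCs (log2 fold change -1.48, standard error 0.23, adjusted p = 0.00265), and without ESC replicate 3 its log2 fold change was -1.20 (adjusted p = 0.00185).

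Tet2 (chromosome 3, 133463677 to 133545136), the TET gene without a CXXC domain of its own, was at 15.73, 16.79 and 28.72 TPM in ESCs and at 1.22, 1.19 and 1.07 TPM in EpiLCs. These rested on 1523, 1242 and 3612 expected counts in ESCs and 188, 175 and 144 in EpiLCs. The EpiLC libraries were alike, and ESC replicate 3 was again the highest. Tet2 was 18.3-fold lower (log2 fold change -4.19, standard error 0.27, adjusted p = 1.13e-04), with a log2 fold change of -3.84 without ESC replicate 3 and of -3.26 with limma on log2(TPM + 1), a scale that understates changes of low genes. It was the member with the lowest level in EpiLCs.

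Tet3 (chromosome 6, 83362373 to 83457208), known as the TET of the oocyte and zygote and of neural tissue, moved the other way. It was at 4.01, 4.28 and 4.64 TPM in ESCs and at 11.49, 10.12 and 9.42 TPM in EpiLCs. The groups were tight and separate, at levels far below those of Tet1. Tet3 rose 2.33-fold (log2 fold change 1.22, standard error 0.11, adjusted p = 2.94e-04).

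Tdg (chromosome 10, 82629814 to 82650799) encodes the thymine DNA glycosylase that excises formylcytosine and carboxylcytosine. It was at 57.94, 46.26 and 51.48 TPM in ESCs and at 101.91, 97.26 and 100.68 TPM in EpiLCs. The rise of 1.86-fold (log2 fold change 0.89, standard error 0.09, adjusted p = 4.70e-04) separated all EpiLC from all ESC libraries. Tdg was the member whose expected counts were not whole (1931.25, 1178.75 and 2229.78 in ESCs), which RSEM gives where reads are divided between genes, and its level is uncertain to that extent.

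**Figure D2:**
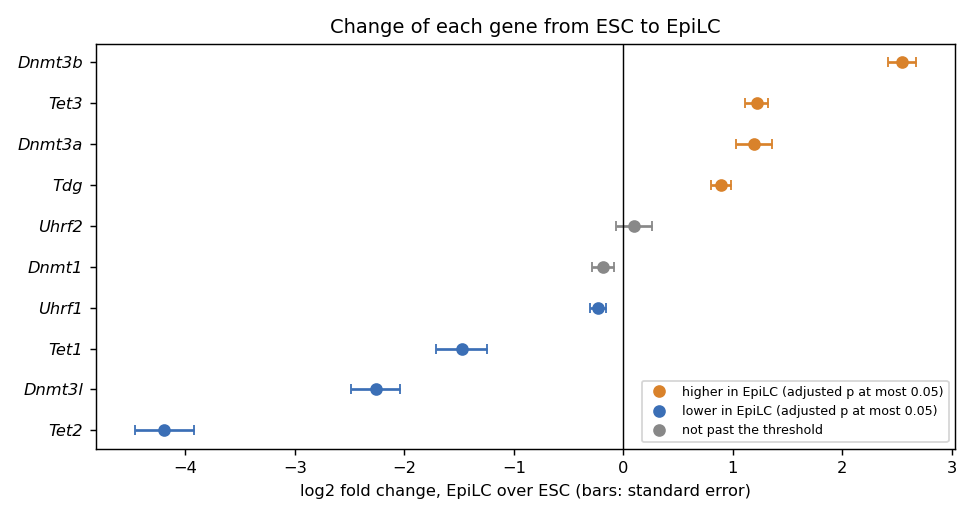
Log2 fold change from ESC to EpiLC for each of the 10 genes (points), from edgeR's quasi-likelihood fit on 3 libraries a group. Bars are standard errors derived from the F statistic of that fit. Dnmt3b (2.54) and Tet2 (-4.19) lie at the ends, and the grey points, Uhrf2 and Dnmt1, did not pass an adjusted p of 0.05.

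TPM can be summed and compared between genes, and on this scale the order of the members changed. In ESCs Dnmt3b, Uhrf1 and Dnmt3l were highest by mean with overlapping ranges. Dnmt1 and Tet1 followed at 162 ± 20.4 and 130 ± 37.5 TPM (SD, n = 3), and the range of Dnmt1 overlapped those of both Dnmt3l and Tet1. Tdg and Uhrf2 came next and did not differ beyond their spread, nor did Dnmt3a and Tet2 below them, and Tet3 was lowest at 4.31 ± 0.316 TPM. In EpiLCs Dnmt3b, Uhrf1, Dnmt1 and Tdg formed a descending series without overlap. Below them Dnmt3a, Uhrf2, Dnmt3l and Tet1 overlapped between neighbours, from 58.6 ± 6.81 to 48.7 ± 10.5 TPM, and Tet3 and Tet2 ended the order.

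Dnmt3b took a larger part of the methyltransferase RNA after differentiation. Its share of the summed Dnmt1, Dnmt3a and Dnmt3b TPM was 60.3%, 57.3% and 58.1% in the ESC replicates and 88.9%, 88.5% and 88.4% in the EpiLC replicates. The share of Dnmt1 fell from 36.0 ± 1.83% to 8.17 ± 0.132% (SD, n = 3), a difference of -27.8 percentage points (exact two-sided permutation test, p = 0.1, the smallest p possible), while its own TPM changed little. Of Dnmt3a and Dnmt3b alone, Dnmt3b made up 91.5 ± 0.276% in ESCs and 96.5 ± 0.261% in EpiLCs (exact permutation p = 0.1), and the groups did not overlap. That difference of 4.99 percentage points was 9.99 when taken on CPM, which is not scaled for length. The summed TPM of the 3 enzymes was 451 ± 66.8 in ESCs and 1800 ± 75.2 in EpiLCs (SD, n = 3).

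Within the TET genes Tet1 stayed dominant and the minor members exchanged places. Tet1 made up 85.3%, 83.1% and 83.9% of summed TET TPM in ESCs and 77.9%, 84.3% and 79.6% in EpiLCs, which overlapped (difference -3.50 percentage points, exact two-sided permutation test, p = 0.3). The difference was -2.15 without EpiLC replicate 1 (p = 0.5) and -5.36 without EpiLC replicate 2 (p = 0.1, exact permutation), and on CPM it was -4.60 (p = 0.1). Tet2 held 11.7%, 13.5% and 13.9% in ESCs and 1.95 ± 0.261% in EpiLCs, and Tet3 2.89 ± 0.603% and 17.5 ± 3.07% (SD, n = 3). The summed TET TPM was 134.37, 124.41 and 206.57 in ESCs and 57.46, 71.97 and 51.32 in EpiLCs. The ratio of summed methyltransferase to summed TET TPM was 3.57, 3.01 and 2.41 in ESCs and 30.1, 25.0 and 36.6 in EpiLCs, so that every EpiLC library stood well above every ESC library.

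**Figure D3:**
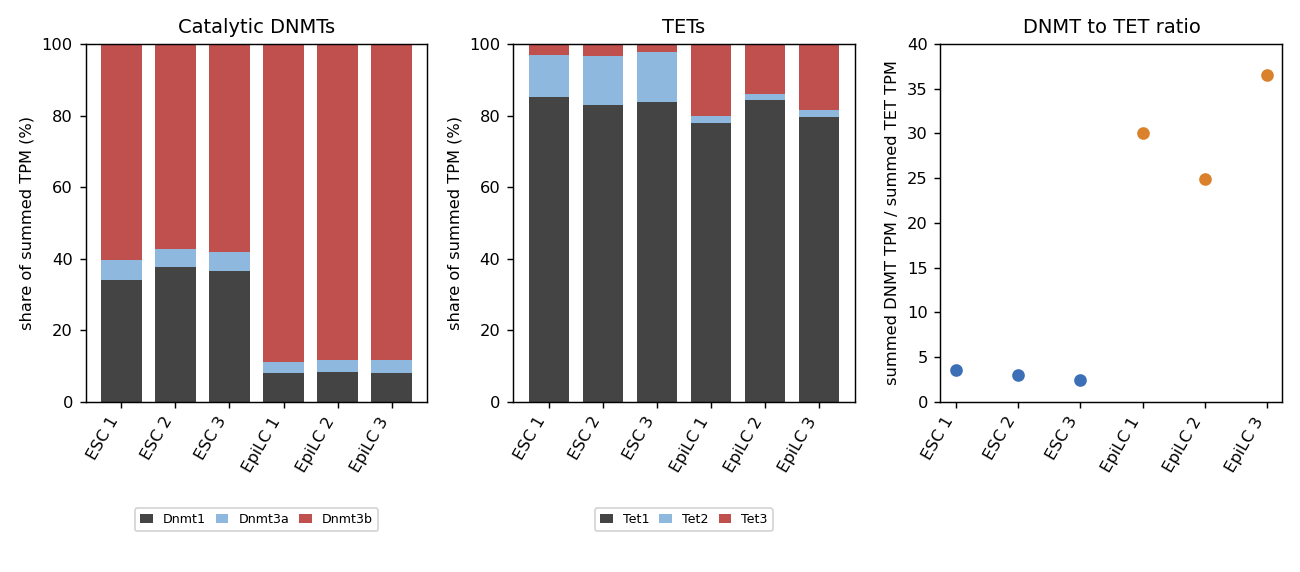
Share (%) of summed TPM held by Dnmt1, Dnmt3a and Dnmt3b (left) and by Tet1, Tet2 and Tet3 (middle), and the ratio of both sums (right), in each of the 6 libraries. Dnmt3b fills 88.4% to 88.9% of the methyltransferase sum in EpiLCs, Tet1 most of the TET sum in both states, and the ratio is between 2.41 and 3.57 in ESCs and between 25.0 and 36.6 in EpiLCs.

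Several of these genes have isoforms of different length, such as the long and short forms of Dnmt3a, which gene-level values do not separate. RSEM divides each gene's counts by a length that is weighted by its isoforms, so the counts per TPM show whether that length moved. Relative to the median gene, it differed between EpiLCs and ESCs by at most 0.574% for the 10 genes (Tet3), and by 0.122% for Dnmt3a. Of 9706 genes with at least 100 counts in every library, 1.10% differed by over 5%. Exchange between isoforms of similar length would not show in this measure.

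The genes most like Dnmt3b were Mapk4, Prob1 and Tub, by the Euclidean distance of centred log2 CPM over the 6 libraries (0.29, 0.33 and 0.34, among 9208 genes with at least 10 CPM on average). Mapk4 was at 4.57, 3.61 and 4.86 TPM in ESCs and at 26.26, 23.23 and 23.03 TPM in EpiLCs. Nearest to Tet2 were Laptm5, Lrrc34 and Socs3 (0.46, 0.48 and 0.54). Laptm5 was at 33.89, 47.36 and 57.94 TPM in ESCs and at 2.58, 2.48 and 2.89 TPM in EpiLCs. With 2 groups such distances mostly reflect the size of the change.

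Other genes of the pathway were taken from 8 lists. Of 64 genes 61 passed the filter on low counts, of which 12 were higher and 21 lower (19.7% and 34.4%, against 22.6% and 22.8% of all genes), with a median log2 fold change of -0.16. Without EpiLC replicate 1 they were 7 and 14, where 14.5% of all genes tested in that fit were higher and 14.2% lower. Without ESC replicate 2 they were 12 and 24, where 24.3% of all genes were higher and 24.5% lower. The lists were chosen with earlier results of these data known.

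Among 8 genes that act on the maintenance of methylation, for or against it, 5 were lower and 0 higher. Zfp57, a zinc finger protein that keeps imprinted regions methylated, fell from 170 ± 19.9 to 41.5 ± 3.45 TPM (SD, n = 3; log2 fold change -2.03, adjusted p = 7.62e-05). Dppa3, which keeps UHRF1 out of the nucleus and shields the maternal genome from TET3, was at 46.15, 40.31 and 128.59 TPM in ESCs and at 7.43, 9.91 and 25.81 TPM in EpiLCs (log2 fold change -2.38, adjusted p = 0.0204). The other falls, of Lig1, Usp7 and Trim28, were small (log2 fold changes from -0.32 to -0.26). The replication clamp Pcna and the remodeller Hells, both needed for copying, had log2 fold changes of 0.02 and 0.0030 and were not called, like Dnmt1.

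Of 8 regulators of de novo methylation, 4 were lower and 1 higher. Prdm14, a repressor of Dnmt3b and of FGF signalling in naive cells, was at 9.55, 7.30 and 12.22 TPM in ESCs and at 0.05, 0.05 and 0.19 TPM in EpiLCs (log2 fold change -6.71, standard error 0.48, adjusted p = 1.56e-04). The EpiLC values rested on 2, 2 and 7 counts, and the log2 fold change was the lowest of the 61 pathway genes tested. Kdm2b, which binds unmethylated CpG islands, rose from 57.2 ± 7.49 to 88.5 ± 3.61 TPM (log2 fold change 0.69, adjusted p = 0.00212). Setd2 and Nsd1, methyltransferases for the histone H3 lysine marks that recruit DNMT3 enzymes, were lower by 0.39 and 0.30 on the log2 scale.

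Of 10 methyl-CpG binding proteins, 3 were higher and 1 lower. Zbtb33, which encodes Kaiso, rose from 14.5 ± 0.750 to 27.0 ± 1.06 TPM (log2 fold change 0.85, adjusted p = 2.67e-04), and Zbtb38 fell from 12.7 ± 3.52 to 5.51 ± 0.211 TPM (log2 fold change -1.25, adjusted p = 0.00264). Mbd2 and Mbd4 were not called.

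Of 7 TET partners and GADD45 genes, 2 were higher and 3 lower. Gadd45b, an early stress-response gene, was at 25.56, 32.30 and 10.05 TPM in ESCs and at 3.64, 2.96 and 2.62 TPM in EpiLCs (log2 fold change -2.92, adjusted p = 0.00217), and Gadd45a had a log2 fold change of -0.75 (adjusted p = 0.00580). Both were highest in ESC replicate 2.

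Of 10 other base excision repair genes 2 were higher, 1 was lower and 7 were not called. Neil3, a glycosylase, rose from 5.86 ± 1.88 to 13.7 ± 0.711 TPM (2.23-fold, adjusted p = 0.00842), and the uracil glycosylase Ung fell from 128 ± 12.6 to 91.3 ± 5.25 TPM (log2 fold change -0.53, adjusted p = 0.00461).

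In the cycle that supplies the methyl donor, 3 of 6 genes were higher and 1 lower. Gnmt, which consumes S-adenosylmethionine, was low but rose from 1.69 ± 0.840 to 5.84 ± 1.78 TPM (log2 fold change 1.68, adjusted p = 0.0161). Mtr, the methionine synthase, was at 31.48, 25.82 and 33.30 TPM in ESCs and at 17.97, 19.62 and 16.36 TPM in EpiLCs (log2 fold change -0.80, adjusted p = 0.00208).

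Among the tRNA methyltransferase gene Trdmt1 (once called Dnmt2) and cytidine deaminases, 0 of 4 genes tested were higher and 2 lower. Apobec2 fell from 4.35 ± 0.454 to 0.427 ± 0.314 TPM (log2 fold change -3.35, adjusted p = 0.00169) and Apobec3 from 98.3 ± 11.9 to 48.0 ± 2.12 TPM (log2 fold change -1.09, adjusted p = 4.54e-04).

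Germline genes whose promoters are known to be silenced by DNA methylation were lower in 4 of 8 cases and higher in 1. Hormad1, of the meiotic chromosome axis, fell from 7.31 ± 1.41 to 0.870 ± 0.278 TPM (log2 fold change -3.11, adjusted p = 6.52e-04), and Tex19.1 from 59.2 ± 13.9 to 20.8 ± 1.91 TPM (log2 fold change -1.56, adjusted p = 6.18e-04). Dazl, an RNA-binding protein of germ cells, was at 3.24, 3.22 and 3.84 TPM in ESCs and at 2.49, 2.97 and 2.51 TPM in EpiLCs and was not called (adjusted p = 0.0932).

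**Figure D4:**
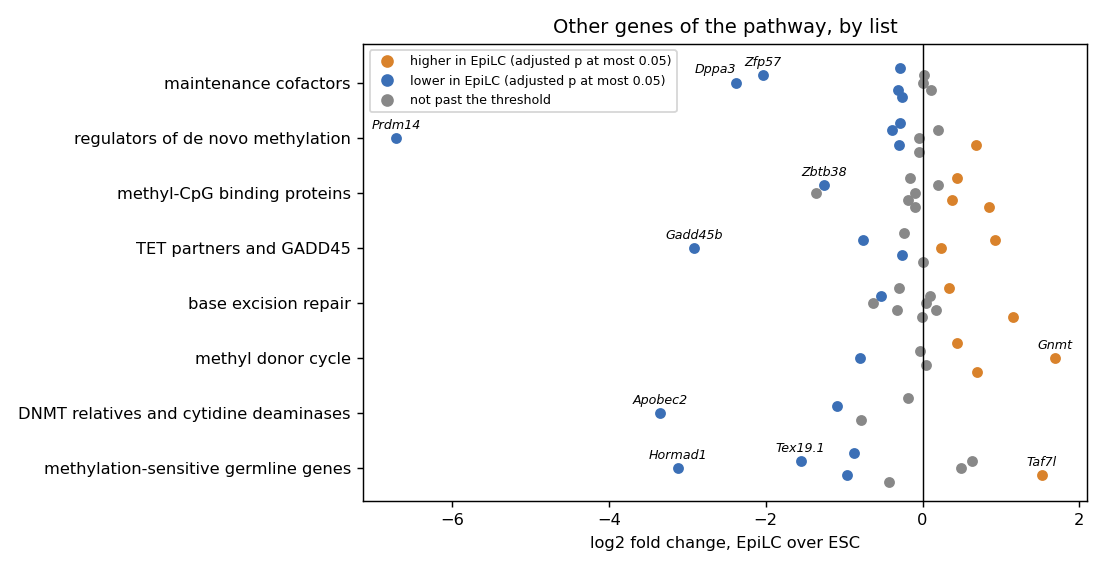
Log2 fold change from ESC to EpiLC of the 61 tested genes in 8 lists, 1 point per gene, coloured by the edgeR call. Called genes beyond 1.2 on either side are named; Prdm14 (-6.71) lies farthest out, and the list of maintenance cofactors includes no called rise.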

How the data were processed

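PolyA RNA libraries of ESCs and EpiLCs (3 each) were sequenced as strand-specific single-end reads of 76 nt. The authors trimmed them with cutadapt 1.16 (versions from the submitters' processing notes), mapped them with STAR 2.5.2a and quantified genes with RSEM 1.3.0 against mm10 RefSeq genes. As deposited, the expected counts of RSEM carry no normalization and divide reads that map to several genes (4.27% to 4.65% of values per library were not whole). The deposited TPM are scaled by RSEM for transcript length to a sum of 1000000.

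Expected counts were rounded, filtered with filterByExpr, normalized by TMM (factors from 0.979 to 1.02) and tested with edgeR 4.0.16 (R 4.3.3, quasi-likelihood, Benjamini-Hochberg over all 14468 genes, threshold 0.05), without a block. The standard errors given were derived from that test, as the absolute log2 fold change over the square root of its F statistic. DESeq2 1.42.0 and limma 3.58.1 were alternatives. Shares and ratios of TPM were compared by exact permutation. Replicates were named as separate biological replicates by the labels, and same-numbered libraries were not taken as pairs. Their deviations correlated with r of 0.01, 0.19 and 0.17 (mean 0.12), against a mean of -0.06 for libraries of different number. Pairing thus remained possible, and a fit with the replicate block is given below. All 10 members were named, and from each list of other genes the 2 called genes with the largest change and a mean of at least 1 TPM in a group, besides the 3 genes nearest to Dnmt3b and to Tet2 and genes chosen after their values were seen (Lig1, Usp7, Trim28, Pcna, Hells, Setd2, Nsd1, Mbd2, Mbd4 and Dazl). The comparison of transcript length was added after the values were seen. The members and lists were chosen with earlier results of these data known. Gene and promoter positions are from RefSeq on GRCm38.p6. The limit of 3 counts covers counting error only.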

Additional observations from a re-analysis of the deposited data

How the results depend on the processing

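The comparison of genes was repeated in 13 alternative fits: DESeq2, upper-quartile normalization, no filter, at least 10 counts in every sample, the replicate block, limma on log2-transformed TPM with a pseudocount of 1 or 0.1, and 6 fits that each left out 1 library. Dnmt3a, Dnmt3b, Dnmt3l, Tet1, Tet2, Tet3 and Tdg kept their direction and their call in all 13. The log2 fold change of Tet2 ranged from -4.37 to -3.26, the smallest on the log2(TPM + 1) scale, which understates changes of low genes. The fall of Uhrf1 was called in 5 of 13, and it missed the threshold with upper-quartile normalization, no filter, limma, and 4 of the fits that left out a library; the cause was not tested. Uhrf2 turned to -0.0111 without ESC replicate 2 and was called at 0.303 without ESC replicate 1, and Dnmt1 was called at -0.282 without ESC replicate 2. The number of members higher was 4 to 5 and lower 3 to 5 when a library was left out, while the share of all genes ranged from 14.5% to 24.3% higher and from 14.2% to 24.5% lower.

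Without 1 library, 7 to 14 pathway genes were higher, 14 to 24 lower and 4244 to 7181 of all genes called, with the lowest values without EpiLC replicate 1 in each case (7, 14 and 4244, against 12, 21 and 6571). The log2 ratio of Uhrf1 to Dnmt1 ranged from -0.120 to 0.0212. With the replicate block 6085 genes were called, 5828 of them shared with the fit without it and all of the same sign; the same members were called, 4 of 6 libraries correlated best with their own number, and the differences of the TPM shares were the same by construction. In CPM, not scaled for length, the shares of Dnmt3b (of Dnmt3a and Dnmt3b), Dnmt1 and Tet1 differed by 9.99, -29.4 and -4.60 percentage points. The part of called genes that were higher was 49.7%, and 58.0% with limma and a pseudocount of 1. The precision of Tet2 in EpiLCs is limited by its 144 to 188 counts per library.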
